A study of Mus musculus with 24 samples.

Results

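The comparison of wildtype myeloid progenitors (MP) with wildtype B cell progenitors sets the myeloid and erythroid side of blood formation beside the B lymphoid side in the same strain. It takes 5 of the 13 arrays in the series, 3 of MP and 2 of B progenitors, which were chosen by their titles and not by any measured value. Both populations came from bone marrow of 129ola mice of genotype Dnmt1+/+ aged 8 to 12 weeks, and total RNA of 35000 to 100000 sorted cells was labelled with biotin as cRNA and hybridised to Affymetrix expression arrays. The other 8 arrays hold MP (3 arrays) and haematopoietic stem cells (HSC, 3 arrays) of the Dnmt1 hypomorph genotype, Dnmt1-/chip, and wildtype HSC (2 arrays) of the same strain and age range. They entered the same model to estimate the spread of each gene. The markers and gates of the sorts are not given in the sources used here. Whether replicate arrays stem from different animals, or from pools, is not given either. The p-values cover the spread among these arrays, part of which may be technical. Sex-linked RNAs, given below, differ between arrays of the same group.

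Myeloid progenitors give rise to granulocytes, monocytes, mast cells, red cells and platelets. Young granulocyte precursors fill their primary granules with serine proteases and myeloperoxidase under C/EBP and PU.1 control, while GATA factors and Tal1 run the erythroid, megakaryocytic and mast cell programmes. B cell progenitors commit under E2A (Tcf3), Ebf1 and Pax5, cut and rejoin their heavy chain gene segments with the Rag recombinase, and test the new heavy chain by pairing it with the surrogate light chain (Igll1, Vpreb1) in the pre-B cell receptor. Interleukin 7 drives their growth.

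The labels were first set against the markers of each population. All 8 myeloid markers measured (Mpo, Elane, Prtn3, Ctsg, Cebpa, Csf2rb, Kit and Cd34) were higher in MP, by log2 fold changes of 4.33 to 9.84. All 7 B lineage markers measured (Cd79a, Pax5, Ebf1, Vpreb1, Igll1, Il7r and Blnk) were lower in MP, by log2 fold changes of -2.79 to -8.79. Levels are log2 intensities between 1.93 and 14.99, with array medians of 4.56 to 4.74 over all probe sets, and a difference of 1 is a 2-fold difference in intensity. The Y-linked gene Eif2s3y read 9.35, 8.93 and 2.75 on MP arrays 1, 2 and 3, and 10.16 and 2.47 on B arrays 1 and 2. The X-inactivation RNA Xist read 12.08, 11.66 and 12.81 in MP, against 4.61 and 12.86 in B progenitors. Low readings differ between probe sets: Xist read 4.61, 3.56 and 3.73 on its 3 probe sets on B array 1, so a level under 5 need not be expression. MP arrays 1 and 2 thus carried both RNAs, MP 3 and B 2 Xist alone, and B 1 Eif2s3y alone. By these readings the B arrays differed in sex and are not repeats of the same RNA sample. Nor is MP 3 a repeat of MP 1 or MP 2. Pearson correlations over all probe sets were 0.988 to 0.996 among MP arrays, 0.980 between the B arrays and 0.916 to 0.930 across the groups. B 2 was nearer to every MP array than B 1 was. For Gapdh, the 3' probe set exceeded the 5' probe set by 3.43, 2.82 and 3.25 in MP and by 4.04 and 3.74 in B progenitors (log2 difference, a measure of RNA length), and for beta-actin by 3.10, 2.97 and 2.99 in MP and by 3.12 and 3.46 in B progenitors. The part of these differences in the results was not tested.

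Of 12765 genes tested, 4580 (35.9%) differed between the populations at a limma adjusted p under 0.05, and these are called below. They were 3150 genes higher in MP (24.7%) and 1430 lower in MP (11.2%). Among the called genes, 169 were at least 16-fold higher and 95 at least 16-fold lower in MP, and 28 and 26 were past 64-fold. The median log2 fold change (MP over B) was 0.13 over all tested genes. The balance of the calls depends on the scaling: with every array centred on its own median over the tested genes, each log2 fold change is 0.41 lower, and the calls become 2032 higher and 3082 lower in MP. Every direction given for a small difference below rests on the authors' scaling, and the lists in which centring moves a count by over 1.5 times and more than 1 gene, or turns the median, are named. Where 0 members of a list are given as rising or falling below, the count at an unadjusted limma p under 0.05 was also 0, with the exception of T and NK cell markers. Counts of called list members are to be read against the 24.7% higher and 11.2% lower of all tested genes. The share lower in MP was near 11.2% for monocyte genes (11.1%), myeloid transcription factors (11.8%) and stem genes (10.7%). It was also near for chemokine genes (10.5%), stroma markers (12.5%) and immediate early genes (12.5%). In the plot of mean levels, the granule genes and Cd34 stand at the upper left and the pre-B receptor genes at the lower right.

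**Figure D1:**
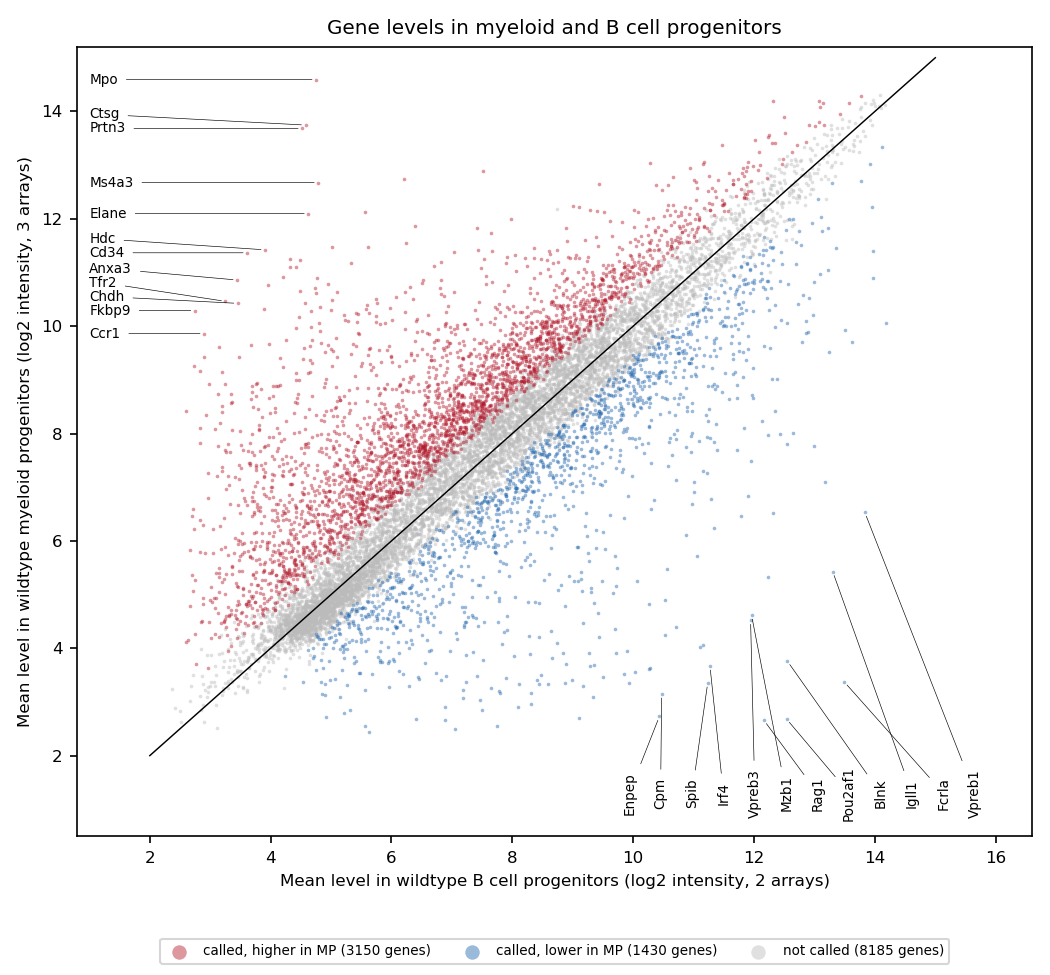
Mean level of each tested gene in wildtype myeloid progenitors (MP, vertical axis, log2 intensity, 3 arrays) against wildtype B cell progenitors (horizontal axis, log2 intensity, 2 arrays). Red points are the 3150 genes called higher in MP, blue points the 1430 called lower and grey points those not called; the line marks equal levels, and the named genes are the 12 with the highest and the 12 with the lowest log2 fold change.

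The 12 genes with the highest log2 fold change were Mpo, Ctsg, Prtn3, Ms4a3, Cd34, Fkbp9, Hdc, Elane, Anxa3, Tfr2, Chdh and Ccr1, at 6.96 to 9.84. The 12 with the lowest were Fcrla, Pou2af1, Rag1, Blnk, Spib, Igll1, Enpep, Irf4, Vpreb3, Mzb1, Cpm and Vpreb1, at -10.12 to -7.30. They were taken from the called genes whose 3 MP arrays all lay on 1 side of both B arrays, a separation found in 59.1% of all tested genes. Each of the 24 exceeded 100-fold in intensity on the probe set that stands for it. Where further probe sets were kept, they had the same direction and mostly smaller log2 fold changes. These were 2.12 for Fkbp9, 3.22 for Ccr1, 3.52 for Tfr2 and 3.59 for Hdc. Igll1 had -3.71 and Fcrla -5.56 and -7.33, while Cpm had a larger difference of -7.44.

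Primary granule and granulocyte-monocyte progenitor genes were the list with the highest median difference of the 29 described. Of 22 genes listed, 19 were tested, and 17 of them (89.5%) rose in MP, against 24.7% of all tested genes. None of them fell, and the median log2 fold change was 5.96. Mpo, the myeloperoxidase that makes hypochlorous acid, had levels of 14.57, 14.63 and 14.58 in MP, against 4.32 and 5.19 in B progenitors. Its level was near the top of the scale on all 3 MP arrays, and its log2 fold change was 9.84 (SE 0.23, limma adjusted p = 1.93e-12). Prtn3 (proteinase 3) had levels of 13.64, 13.73 and 13.68 in MP, against 4.22 and 4.82 in B progenitors. Ctsg (cathepsin G) had 13.73, 13.79 and 13.72 in MP, against 4.87 and 4.28 in B progenitors. Elane (neutrophil elastase) had 12.14, 12.35 and 11.80 in MP, against 4.38 and 4.87 in B progenitors. These proteases sit in the same granule as Mpo, and no MP array came within 6 log2 units of a B array for any of them. Ms4a3, a tetraspan protein of granulocyte-monocyte precursors, averaged 12.67 ± 0.15 in MP (SD, n = 3) and 4.79 ± 0.75 in B progenitors (SD, n = 2). Ctsc, the protease that activates the granule proteases, did not pass (log2 fold change -0.17, limma adjusted p = 0.75), nor did Fcnb (0.29, limma adjusted p = 0.36). Because whole populations were measured, fewer cells of a type and less RNA per cell cannot be told apart here or below.

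Promoters are shown for the granule genes at the top of this list that hold the PU.1 (Spi1) motif. The sequences are RefSeq windows of build GRCm38.p6, 250 bases before to 50 after the annotated start, written along the gene's strand, with the motif GAGGAAGT in capitals. Elane (chr10:79886062-79886361, plus strand) and Prtn3 (chr10:79879417-79879716, plus strand) are neighbours on chromosome 10, and Mpo (chr11:87793534-87793833, plus strand) is on chromosome 11.
Mpo: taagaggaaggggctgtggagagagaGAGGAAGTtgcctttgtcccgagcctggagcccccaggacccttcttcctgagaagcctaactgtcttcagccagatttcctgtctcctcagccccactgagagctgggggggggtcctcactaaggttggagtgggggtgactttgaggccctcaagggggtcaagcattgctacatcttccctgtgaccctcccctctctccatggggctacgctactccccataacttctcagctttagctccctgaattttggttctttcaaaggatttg
Prtn3: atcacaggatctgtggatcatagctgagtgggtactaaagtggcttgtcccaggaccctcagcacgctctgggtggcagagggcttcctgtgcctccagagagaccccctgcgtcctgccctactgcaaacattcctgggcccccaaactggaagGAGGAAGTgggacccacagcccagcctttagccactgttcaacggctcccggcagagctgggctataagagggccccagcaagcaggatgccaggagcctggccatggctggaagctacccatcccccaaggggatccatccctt
Elane: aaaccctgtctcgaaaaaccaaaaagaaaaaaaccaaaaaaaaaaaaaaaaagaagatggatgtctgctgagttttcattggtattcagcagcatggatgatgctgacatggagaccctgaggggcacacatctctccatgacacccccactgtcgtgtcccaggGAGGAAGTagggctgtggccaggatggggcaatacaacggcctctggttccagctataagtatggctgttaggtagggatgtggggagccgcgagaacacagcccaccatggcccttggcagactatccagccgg
The motif begins at position -224 in Mpo, -95 in Prtn3 and -85 in Elane, counted from the start site. Searched on both strands, it was in 3 of the 11 genes with a window among the 12 highest and in 0 of 11 among the 12 lowest. It was present in 3.20% of all 32851 windows, in 3.52% of the windows of genes called higher in MP and in 3.51% of those called lower, so over all called genes its share was alike on both sides. The C/EBP motif TTGCNNAA was in 9.72% of windows of genes called higher in MP, 8.25% of those called lower and 10.8% of all windows. It was in 1 of 11 genes among the 12 highest (Ms4a3) and in 4 of 11 among the 12 lowest (Cpm, Enpep, Pou2af1 and Spib). The GATA motif AGATAA was in 7.52%, 5.39% and 11.2% of windows of genes called higher, of those called lower and of all windows. It was in 0 of 11 genes on either side. A match describes the letters of the window and not binding.

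Genes of later neutrophil granules had a smaller median difference. Of 14 tested out of 20 listed, 6 rose in MP and 0 fell, and the median log2 fold change was 1.31. Pglyrp1, a bactericidal peptidoglycan-binding protein, had levels of 7.10, 7.84 and 7.29 in MP, against 3.52 and 4.16 in B progenitors (log2 fold change 3.57, limma adjusted p = 3.24e-06). Lyz2 (lysozyme M) had 9.87, 10.24 and 10.04 in MP, against 6.60 and 7.80 in B progenitors (2.84, limma adjusted p = 2.95e-05). The calprotectin subunit S100a8 had 8.06, 8.92 and 7.99 in MP, against 4.54 and 7.22 in B progenitors, so the B arrays differed more from each other than B 2 did from MP. The mean level over the tested list was 6.35, 6.68 and 6.30 in MP, against 4.65 in B 1 and 5.71 in B 2. Without B 1 the list had 3 members higher and a median of 0.37, and without B 2 it had 7 and 2.04. With centred arrays 6 were higher and 2 lower. Ltf, Mmp9, Cybb, Fpr2, Itgb2l, Camp, S100a9 and Ngp did not pass, and Mmp8, Itgam and Cd177 were too dim to be tested.

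Monocyte and macrophage genes were higher in MP for 14 of 18 tested and lower for 2, with a median log2 fold change of 3.25. Csf1r, the receptor for macrophage colony-stimulating factor, had levels of 12.05, 12.10 and 12.21 in MP, against 5.96 and 5.16 in B progenitors (log2 fold change 6.56, limma adjusted p = 1.29e-10). Ccr2, the receptor by which monocytes leave the marrow, had 10.84, 10.41 and 10.63 in MP, against 4.84 and 4.66 in B progenitors (5.88, limma adjusted p = 3.83e-10). Ms4a6c (4.79) and Emb (4.75) followed, although another probe set of Ms4a6c ran the other way (-1.72, limma adjusted p = 0.0014). The lysosomal protease Ctss and the saposin precursor Psap fell in MP, by 2.03 and 0.78 on the log2 scale; Ctss also cuts the invariant chain in antigen-presenting cells. C1qb, C1qc, Mrc1 and Marco, which mark mature macrophages, were too dim to be tested, and C1qa did not differ beyond its spread (0.00, limma adjusted p = 1.00).

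Mast cell, basophil and eosinophil genes were higher in MP for 10 of 13 tested and lower for 1, Prg3 (an eosinophil granule protein, -1.33), with a median log2 fold change of 4.84. Hdc, which makes histamine, had levels of 11.37, 11.62 and 11.28 in MP, against 3.36 and 4.46 in B progenitors (log2 fold change 7.51, limma adjusted p = 1.17e-09). The mast cell carboxypeptidase Cpa3 had 11.25, 11.18 and 10.87 in MP, against 4.50 and 4.15 in B progenitors (6.78, limma adjusted p = 7.08e-10). Ms4a2, the beta chain of the IgE receptor, had 10.99, 10.61 and 10.70 in MP, against 3.41 and 4.50 in B progenitors (6.81, limma adjusted p = 5.76e-08). In each of these the lowest MP array was over 6 log2 units above the higher B array. Wildtype HSC read 5.47 and 5.42 for Hdc, 5.45 and 6.24 for Cpa3 and 4.25 and 5.55 for Ms4a2. Prg2, the eosinophil major basic protein, varied within MP, at 7.10, 8.31 and 5.70, against 2.71 and 3.92 in B progenitors (3.72, limma adjusted p = 0.0068).

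Transcription factors of the myeloid lineage were higher in MP for 10 of 17 tested and lower for 2, with a median log2 fold change of 1.09; with centred arrays 6 were higher, and without B 1 the median was 0.67. Cebpd had the largest difference, with levels of 9.36, 9.89 and 9.59 in MP, against 2.91 and 3.38 in B progenitors (log2 fold change 6.47, limma adjusted p = 4.61e-10), though another of its probe sets gave 0.65 (limma adjusted p = 0.11). Cebpa, without which granulocyte-monocyte progenitors do not form, had 8.58, 8.21 and 8.40 in MP, against 3.95 and 4.19 in B progenitors (4.33, limma adjusted p = 5.57e-08). Cebpb, which acts in emergency granulopoiesis, was 2.70 higher. PU.1 (Spi1), which both myeloid and B cells need at different doses, differed less, at 8.45, 9.22 and 8.55 in MP against 7.19 and 7.05 in B progenitors (1.62, SE 0.25, limma adjusted p = 0.000187). Gfi1 (1.55) and Runx1 (0.92) were called higher too. Irf8, a factor of monocyte and B cell development, had 11.35, 11.64 and 11.43 in MP and 11.38 and 11.51 in B progenitors, and the arrays of the groups overlapped (0.04, limma adjusted p = 0.95). It read 7.32 and 7.55 in wildtype HSC. Zeb2 was called lower on its brightest probe set (-2.80, limma adjusted p = 0.000136), and averaged over its probe sets it was not called (-0.74, limma adjusted p = 0.067).

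Receptors for myeloid and erythroid growth factors were higher in MP for 12 of 15 tested and lower for 1, the interferon receptor chain Ifnar1 (-1.20), with a median log2 fold change of 2.45. Kit, the receptor for stem cell factor, had levels of 10.80, 9.74 and 10.29 in MP, against 4.63 and 4.70 in B progenitors (log2 fold change 5.61, limma adjusted p = 5.02e-07), and another probe set gave 1.66. Csf2rb, the shared signalling chain for interleukin 3, interleukin 5 and GM-CSF, had 9.90, 9.63 and 10.03 in MP, against 4.52 and 6.41 in B progenitors (4.39, limma adjusted p = 2.63e-06). Its close relative Csf2rb2, which serves interleukin 3 alone, was 5.01 higher, and probes of such similar genes may share RNA. Csf3r, the granulocyte colony-stimulating factor receptor, was 3.44 higher. In the plot of lineage genes, the MP arrays lie to the right of the B arrays for 19 of the 20 genes of the left panel. Irf8 is the exception. These genes were largely picked for their difference. Over all tested genes, arrays were separated in 59.1%, which counts both directions and not only MP above B.

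**Figure D2:**
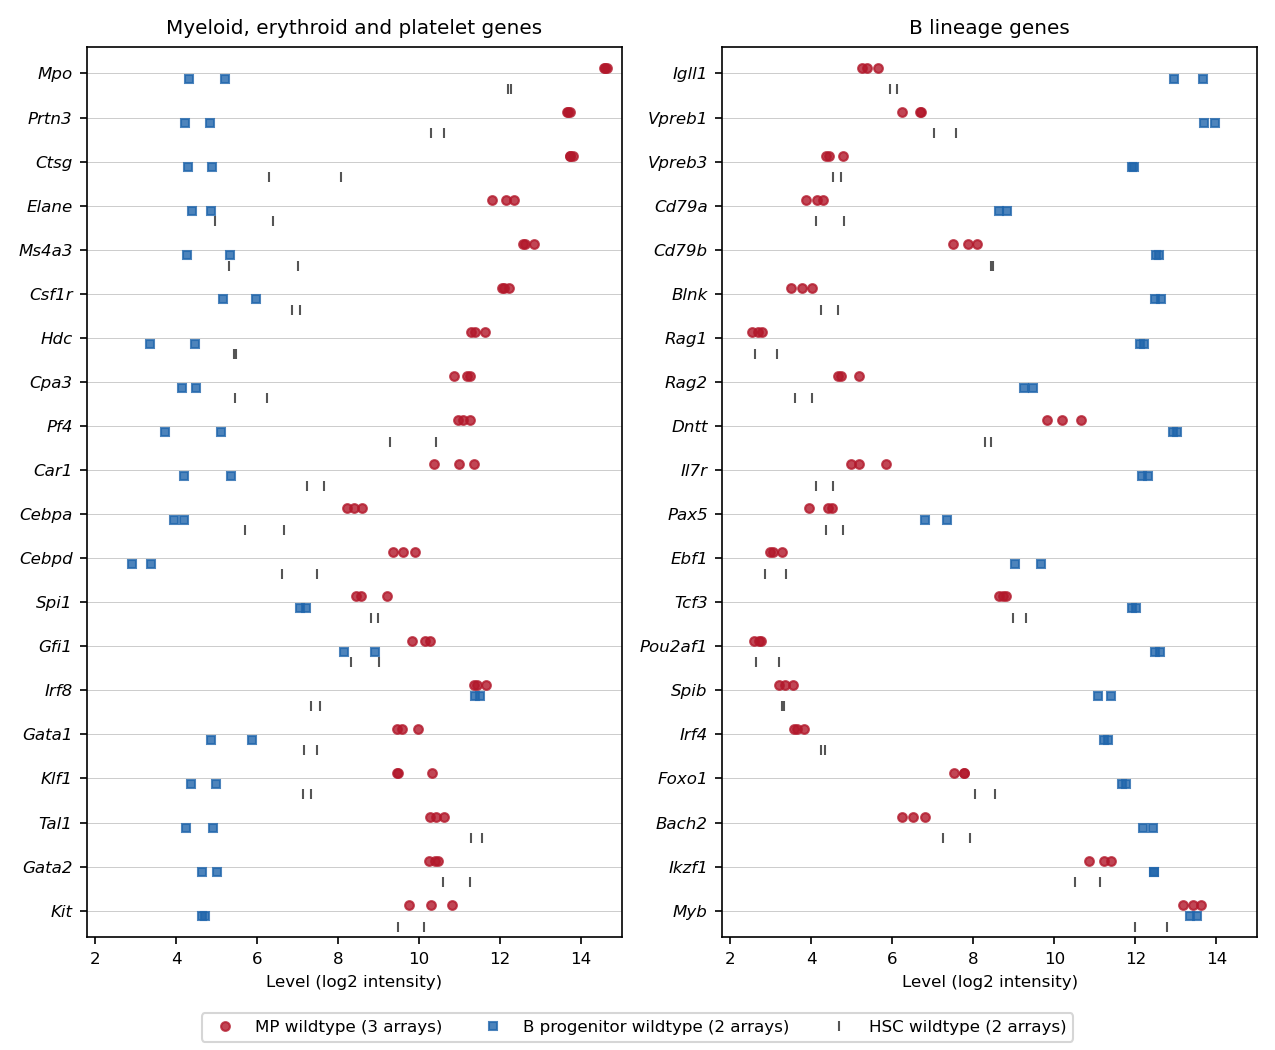
Level of lineage genes on each array (horizontal axis, log2 intensity); red circles are the 3 wildtype MP arrays, blue squares the 2 wildtype B progenitor arrays and grey ticks the 2 wildtype HSC arrays. For Mpo the MP arrays read 14.57 to 14.63 and the B arrays 4.32 and 5.19, for Igll1 the MP arrays read 5.26 to 5.64 and the B arrays 12.94 and 13.66, and for Irf8 and Myb the groups overlap.

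Erythroid regulators were present in the sorted MP population beside the granulocyte genes. Of 13 tested, 9 were higher in MP and 1 was lower, with a median log2 fold change of 1.25. Gata1, which erythroid and megakaryocytic cells require, had levels of 9.58, 9.97 and 9.45 in MP, against 5.86 and 4.87 in B progenitors (log2 fold change 4.30, limma adjusted p = 9.94e-08). Klf1, the activator of adult globin, had 9.45, 10.30 and 9.47 in MP, against 4.98 and 4.37 in B progenitors (5.06, limma adjusted p = 1.92e-08). Tal1 had 10.61, 10.26 and 10.41 in MP, against 4.23 and 4.91 in B progenitors, and Nfe2 had 10.56, 11.03 and 10.55 in MP, against 4.30 and 5.16 in B progenitors. Wildtype HSC had more Tal1 (11.27 and 11.55) and Nfe2 (11.81 and 12.13) than either population and intermediate Gata1 (7.47 and 7.15). The Gata1 cofactor Zfpm1 (FOG-1) was lower in MP, at 8.02, 8.44 and 7.82, against 9.60 and 9.34 in B progenitors (-1.38, limma adjusted p = 0.0037).

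Products of maturing red cells had a smaller median difference. Of 27 membrane, heme and iron genes tested out of 34 listed, 14 were higher in MP and 1 was lower, with a median log2 fold change of 0.86; with centred arrays these were 9 and 4. Car1 (carbonic anhydrase 1), an early erythroid enzyme, had levels of 10.99, 11.35 and 10.36 in MP, against 5.35 and 4.19 in B progenitors (log2 fold change 6.13, limma adjusted p = 6.63e-08). The water channel Aqp1 had 8.85, 9.29 and 8.65 in MP, against 3.72 and 3.78 in B progenitors (5.18, limma adjusted p = 2.22e-08). Ermap (4.51) and Icam4 (3.20), surface proteins of red cell precursors, were higher as well. Alas2, the erythroid enzyme that starts heme synthesis, read 4.37, 4.83 and 4.36 in MP and 4.56 and 4.45 in B progenitors (0.02, limma adjusted p = 0.98), and Slc4a1 (band 3) did not pass (0.10, limma adjusted p = 0.94). The transferrin receptor Tfrc was close in the populations, at 10.26, 9.85 and 10.15 in MP and 10.49 and 10.56 in B progenitors (-0.44, limma adjusted p = 0.14). Tfr2, the second transferrin receptor, was among the 12 highest, with 10.48, 10.50 and 10.41 in MP, against 3.47 and 3.04 in B progenitors.

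Megakaryocyte and platelet genes were higher in MP for 13 of 17 tested and lower for 0, with a median log2 fold change of 2.36. Pf4 (platelet factor 4) had levels of 10.95, 11.08 and 11.26 in MP, against 5.11 and 3.73 in B progenitors (log2 fold change 6.68, limma adjusted p = 1.85e-08). The thrombin receptor F2r had 11.69, 11.27 and 11.47 in MP, against 5.51 and 5.73 in B progenitors (5.86, limma adjusted p = 1.40e-09). Vwf (5.60) and the integrin Itga2b (CD41, 4.31) were higher too. All of these were also high in wildtype HSC, where Pf4 read 10.42 and 9.29 and F2r 11.51 and 11.92. Tubb1 (0.63), Mef2c (0.77), Selp (1.20) and Fli1 (-0.46) did not pass.

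Genes of stem and early progenitor cells were higher in MP for 17 of 28 tested and lower for 3, with a median log2 fold change of 1.57; with centred arrays 6 were lower. Cd34, a sialomucin of progenitors, had levels of 11.48, 11.11 and 11.50 in MP, against 3.83 and 3.40 in B progenitors (log2 fold change 7.75, limma adjusted p = 3.66e-09). Prom1 (CD133) had 8.97, 8.68 and 9.16 in MP, against 4.13 and 3.42 in B progenitors, and it was lower in wildtype HSC, at 5.41 and 5.16. Angpt1, the ligand of the Tie2 receptor, was 5.82 higher in MP on one probe set and 0.16 (limma adjusted p = 0.68) on another. Hmga2, a chromatin protein of fetal and growing stem cells, was 4.75 higher. Of the 17 genes higher in MP, 13 had a still higher mean in wildtype HSC, Hoxa9 and Meis1 among them. Sox4 (-1.27), Mmrn1 (-1.25) and Msi2 (-1.18) were lower in MP, and without B 2 the list had 1 member lower.

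On the B lymphoid side, the pre-B receptor and its signalling genes had the lowest median of the 29 lists at the filter used, -3.78. Under the 75th percentile filter, plasma cell and mature B markers (-5.00) and B lineage transcription factors (-4.24) were lower still. Of 24 genes tested out of 28 listed, 19 fell in MP and 0 rose. Igll1 (lambda 5) had levels of 5.26, 5.64 and 5.38 in MP, against 12.94 and 13.66 in B progenitors (log2 fold change -7.87, SE 0.23, limma adjusted p = 1.42e-11). Vpreb1, the other surrogate light chain component, had 6.22, 6.68 and 6.69 in MP, against 13.70 and 13.96 in B progenitors (-7.30, limma adjusted p = 3.67e-09); its near-identical copy Vpreb2 is not analysed here and may add to this signal. Vpreb3, a chaperone of receptor assembly, had 4.35, 4.78 and 4.43 in MP, against 11.92 and 11.97 in B progenitors. These genes were thus at least 7 log2 units apart in their group means, with no overlap of arrays. Blnk, the adaptor that links the receptor to its kinases, averaged 3.76 ± 0.25 in MP (SD, n = 3) and 12.55 ± 0.12 in B progenitors (SD, n = 2; -8.79, limma adjusted p = 4.80e-12). The gene with the lowest fold change of all, Fcrla, an intracellular Fc receptor-like protein that binds immunoglobulin in B cells, had 3.21, 3.53 and 3.38 in MP, against 13.60 and 13.38 in B progenitors (-10.12, limma adjusted p = 5.32e-13).

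The receptor's signalling subunits Cd79a and Cd79b were 4.64 and 4.73 lower in MP on the log2 scale. Cd79a read 4.14, 4.27 and 3.86 in MP, against 8.64 and 8.83 in B progenitors. Cd79b read 7.49, 8.07 and 7.87 in MP, against 12.50 and 12.58 in B progenitors. The immunoglobulin heavy chain Ighm was bright in B progenitors, at 14.14 and 14.22, and read 9.69, 10.37 and 10.15 in MP (log2 fold change -4.12, SE 1.01, limma adjusted p = 0.0054). The spread of wildtype HSC, which read 11.06 and 6.59, enters the same model. Parts of the signalling chain that myeloid cells share did not pass, namely Btk (-0.35), Plcg2 (-0.09), Vav1 (0.13), Pik3cd (-0.68) and Ptprc (CD45, -0.25).

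Promoters of the surrogate light chain genes and of Cd79a are shown for the E protein motif CAGGTG, which Tcf3 products recognise. Igll1 (chr16:16863936-16864235, minus strand) and Vpreb1 (chr16:16869206-16869505, minus strand) are neighbours on chromosome 16, and Cd79a (chr7:24897247-24897546, plus strand) is on chromosome 7. The sequences are RefSeq windows of GRCm38.p6 as above, along the gene's strand, with the motif in capitals (CACCTG where it lies on the other strand).
Igll1: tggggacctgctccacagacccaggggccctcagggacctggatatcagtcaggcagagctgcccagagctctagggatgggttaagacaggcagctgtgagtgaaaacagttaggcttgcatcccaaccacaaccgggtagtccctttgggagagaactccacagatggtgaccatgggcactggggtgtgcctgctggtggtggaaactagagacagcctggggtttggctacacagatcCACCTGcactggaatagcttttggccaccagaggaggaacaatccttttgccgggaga
Vpreb1: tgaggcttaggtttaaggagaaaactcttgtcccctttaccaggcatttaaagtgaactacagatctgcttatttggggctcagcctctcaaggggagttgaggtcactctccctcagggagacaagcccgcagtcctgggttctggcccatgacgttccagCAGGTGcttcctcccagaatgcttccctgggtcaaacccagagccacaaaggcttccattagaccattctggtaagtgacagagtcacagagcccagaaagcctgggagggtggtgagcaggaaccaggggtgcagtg
Cd79a: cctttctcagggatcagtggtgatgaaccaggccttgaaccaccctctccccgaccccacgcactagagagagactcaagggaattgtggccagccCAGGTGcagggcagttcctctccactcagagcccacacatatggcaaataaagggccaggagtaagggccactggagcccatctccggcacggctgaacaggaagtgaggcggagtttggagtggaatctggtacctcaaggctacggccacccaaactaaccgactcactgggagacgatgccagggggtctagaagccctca
The motif begins at position -8 in Igll1, -88 in Vpreb1 and -154 in Cd79a. It was found in 5 of the 11 genes with a window among the 12 lowest (Blnk, Fcrla, Igll1, Rag1 and Vpreb1) and in 2 of 11 among the 12 highest (Chdh and Ctsg). Over all called genes it was in 17.6% of windows of genes higher in MP, 19.3% of those lower in MP and 20.2% of all 32851 windows. The palindromic Ebf1 motif (TCCC and GGGA with 2 free bases between them) was in 0.887% of windows of genes higher in MP, 1.75% of those lower in MP and 0.904% of all windows, and in no window of the 12 lowest.

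Among B lineage transcription factors, 16 of 20 tested were lower in MP and 1 was higher, with a median log2 fold change of -3.02. Ebf1, which opens B lineage chromatin, had levels of 3.26, 3.05 and 2.98 in MP, against 9.66 and 9.02 in B progenitors (log2 fold change -6.25, SE 0.23, limma adjusted p = 1.71e-10), and its other probe sets gave larger differences of -9.19, -7.56 and -7.26. Pax5, which locks in B cell identity, was less bright in B progenitors and had 4.41, 4.50 and 3.95 in MP, against 7.35 and 6.80 in B progenitors (-2.79, limma adjusted p = 7.65e-07). Tcf3, which codes for E2A, was expressed in both and had 8.64, 8.73 and 8.79 in MP, against 11.92 and 12.02 in B progenitors (-3.25, limma adjusted p = 3.07e-07). No MP array overlapped a B array in any of these. Several factors that act on immunoglobulin loci were also lower in MP. Pou2af1 (OBF-1), the coactivator of octamer factors, had 2.75, 2.59 and 2.70 in MP, against 12.60 and 12.48 in B progenitors (-9.86, limma adjusted p = 8.55e-13). Spib (-7.88) and Irf4 (-7.60), which act at light chain enhancers, were lower too.

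Foxo1, an activator of Il7r and Rag transcription, had levels of 7.77, 7.52 and 7.77 in MP, against 11.76 and 11.67 in B progenitors. Bach2, a repressor with myeloid gene targets in B cell progenitors, was 5.80 lower in MP, and Lef1 5.82 lower. Ikzf1 (Ikaros) had 11.39, 10.85 and 11.22 in MP, against 12.46 on both B arrays (log2 fold change -1.30, limma adjusted p = 0.0018), while another probe set gave -0.00 (limma adjusted p = 0.99). Myb, which progenitors of both lineages need, had 13.61, 13.17 and 13.43 in MP and 13.52 and 13.36 in B progenitors, with overlapping arrays (-0.04, limma adjusted p = 0.93). Bcl11a was called higher in MP (0.69, limma adjusted p = 0.049) and was not with centred arrays, and Runx3 (1.18) and Pou2f2 (0.03) did not pass.

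Genes for antigen receptor recombination were lower in MP for 6 of 13 tested (46.2%, against 11.2% of all tested genes). They were higher for 2 (15.4%, against 24.7%), and the median log2 fold change was -1.25. Rag1, the catalytic subunit of the recombinase, had levels of 2.77, 2.67 and 2.53 in MP, against 12.22 and 12.11 in B progenitors (log2 fold change -9.50, limma adjusted p = 8.55e-13). Its partner Rag2 had 5.17, 4.64 and 4.72 in MP, against 9.26 and 9.46 in B progenitors (-4.51, limma adjusted p = 3.77e-08). Lig4, the ligase of end joining, was 5.08 lower and Polm, a polymerase of end joining, 3.76 lower in MP. Terminal transferase (Dntt), which adds untemplated bases at joints, was bright in both populations, at 10.64, 9.82 and 10.18 in MP against 12.93 and 13.03 in B progenitors (-2.76, limma adjusted p = 1.61e-05), and read 8.29 and 8.44 in wildtype HSC. The general repair genes Xrcc4 (0.09), Xrcc5 (0.51), Atm (0.23) and Nhej1 (-0.36) did not pass, and Prkdc (0.74) and Poll (1.40) were higher in MP.

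Of 19 lymphoid receptor and priming genes tested, 11 were lower in MP (57.9%, against 11.2% of all tested genes) and 4 were higher (21.1%, against 24.7%), with a median log2 fold change of -1.62. Il7r, the receptor for the cytokine on which mouse B progenitors depend, had levels of 5.84, 4.97 and 5.17 in MP, against 12.17 and 12.31 in B progenitors (log2 fold change -6.91, limma adjusted p = 5.43e-10). Enpep (BP-1), an aminopeptidase that marks late pro-B and pre-B cells, had 2.51, 2.77 and 2.90 in MP, against 10.20 and 10.66 in B progenitors. Bst1 (BP-3) was 4.63 lower and the BAFF receptor Tnfrsf13c 4.64 lower in MP. Cd27 and Flt3 were higher in MP. Cd27 had 7.79, 8.24 and 7.92 in MP, against 3.69 and 3.67 in B progenitors (4.30, limma adjusted p = 1.48e-08), and Flt3 had 8.98, 9.02 and 9.08 in MP, against 7.18 and 6.27 in B progenitors (2.30, limma adjusted p = 8.66e-05). Both Cd27 and Flt3 are carried by multipotent progenitors, and wildtype HSC read 8.96 and 9.34 for Cd27.

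Markers of mature B and plasma cells were lower in MP for all 7 tested of 11 listed, with a median log2 fold change of -3.53 and list means of 3.93, 4.13 and 3.97 in MP, against 8.18 and 8.03 in B progenitors. Ms4a1 (CD20) had levels of 3.32, 3.44 and 3.45 in MP, against 8.41 and 8.39 in B progenitors. The antibody joining chain Jchain averaged 3.52 ± 0.22 in MP (SD, n = 3) and 9.85 ± 0.21 in B progenitors (SD, n = 2), and read 11.31 and 8.74 in wildtype HSC. Syndecan 1 (Sdc1), found on pre-B and plasma cells, had 5.55, 6.17 and 5.87 in MP, against 9.26 and 9.51 in B progenitors. Further probe sets of Sdc1 gave -3.29, -2.79 and 0.05, the last not called (limma adjusted p = 0.90). Cd40 was 3.35 lower in MP. Prdm1 (Blimp-1), the plasma cell regulator, read 4.58, 4.74 and 4.57 in MP and 6.14 and 5.22 in B progenitors (-1.05, limma adjusted p = 0.0052). Cr2, Tnfrsf17 and Cd83 were too dim to be tested. How far mature B cells were part of the B sort was not tested.

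Of 18 antigen presentation genes tested, 7 were lower in MP (38.9%, against 11.2% of all tested genes) and 4 were higher (22.2%, against 24.7%), with a median log2 fold change of -0.19. Among the class II genes, H2-Aa had levels of 6.91, 7.06 and 6.52 in MP, against 12.07 and 11.72 in B progenitors (log2 fold change -5.07, limma adjusted p = 1.47e-09). The invariant chain Cd74 (-3.61), H2-Eb1 (-3.48), H2-Ab1 (-3.18) and the class II transactivator Ciita (-1.15) went the same way. Wildtype HSC read 10.87 and 10.59 for H2-Aa, between the populations. The class I chain H2-K1 (0.05) and its partner B2m (0.08) were close in the populations, and B2m read 13.38, 13.31 and 13.43 in MP and 13.15 and 13.44 in B progenitors. Psmb8 (1.99) and Psmb9 (1.05), subunits of the immunoproteasome that cuts peptides for class I, were higher in MP; without B 1 the list had 2 members higher.

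Of 8 Fc receptor genes tested, 2 were higher in MP (25%), near the 24.7% of all tested genes. Another 2 were lower (25%, against 11.2% of all tested genes), and 4 were not called. The median log2 fold change was 0.12, which is -0.29 with centred arrays. Fcgr3, the activating IgG receptor of myeloid cells, had levels of 8.75, 9.08 and 8.92 in MP, against 2.91 and 3.05 in B progenitors (log2 fold change 5.93, limma adjusted p = 1.07e-10). Its signalling chain Fcer1g had 7.94, 8.92 and 8.05 in MP, against 4.67 and 4.47 in B progenitors. Fcrl1 (-3.03) and the low-affinity IgE receptor Fcer2a (-1.76), both of B cells, were lower in MP, and the inhibitory receptor Fcgr2b, which both lineages use, did not pass (-0.03, limma adjusted p = 0.93).

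Among 19 chemokine, integrin and homing genes tested, 9 were higher in MP (47.4%, against 24.7% of all tested genes). The 2 that were lower (10.5%) were near the 11.2% of all tested genes. The median log2 fold change was 0.63, and with centred arrays 5 were lower. Ccr1 had levels of 10.20, 9.56 and 9.82 in MP, against 2.86 and 2.94 in B progenitors (log2 fold change 6.96, limma adjusted p = 2.25e-10). Ccl9, a ligand of Ccr1, had 12.75, 12.70 and 12.78 in MP, against 6.14 and 6.27 in B progenitors (6.54, limma adjusted p = 4.80e-12). Receptor and ligand were thus both bright on the 3 MP arrays. Cxcr4, which holds B progenitors near stromal cells that make its ligand, had 8.09, 7.80 and 8.08 in MP, against 10.66 and 10.68 in B progenitors (-2.68, limma adjusted p = 4.44e-05). Cd93 was 1.42 lower in MP, and the integrin chains Itgb7 (2.20), Itgal (1.97) and Itga4 (0.95) were higher.

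The medians and spread of the lists are set side by side in the plot of list members. Members of the primary granule list reach 9.84 and those of the pre-B receptor list -10.12, while members of the replication and mitosis lists stay within 2 log2 units of 0.

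**Figure D3:**
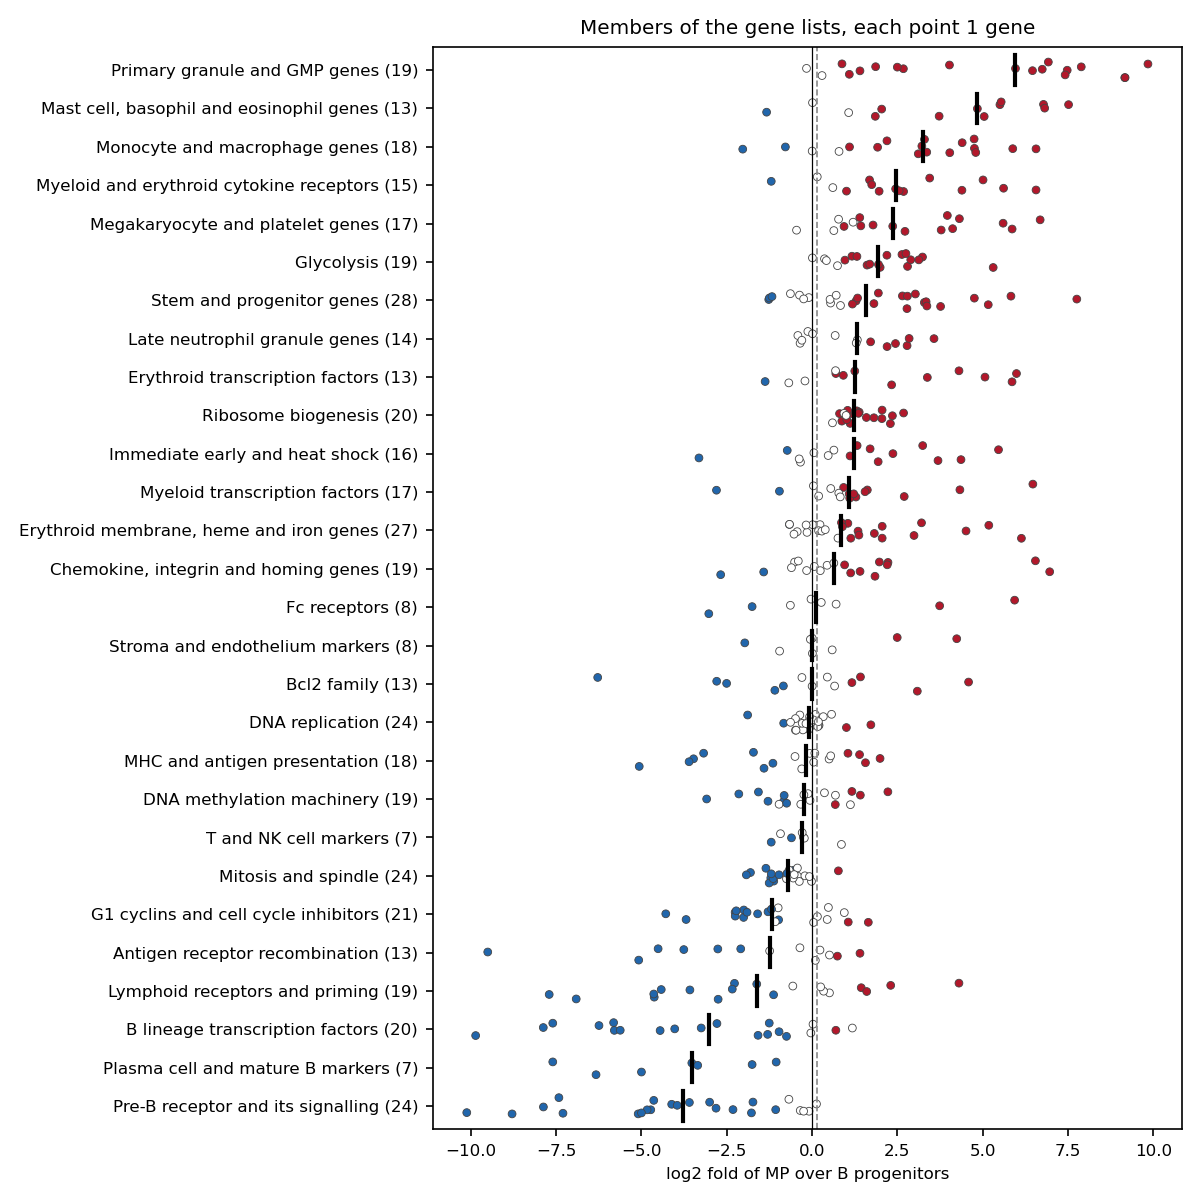
log2 fold change of MP over B progenitors (horizontal axis) for each tested member of 28 gene lists, with the number of tested members in brackets. Red points were called higher in MP, blue points lower and white points were not called; the bar is the list median and the dashed line the median of all tested genes, 0.13. Medians run between 5.96 for primary granule genes and -3.78 for the pre-B receptor list.

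Cell cycle genes were listed by phase. Of 24 DNA replication genes tested, 2 were higher in MP (8.33%), 2 were lower (8.33%) and 20 did not pass, against 24.7% higher and 11.2% lower over all tested genes. Their median log2 fold change was -0.08; it was 0.03 when probe sets of a gene were averaged, and with centred arrays 9 members were lower. Mcm5, part of the replicative helicase, read 12.79, 12.74 and 12.83 in MP and 12.81 and 12.96 in B progenitors, with overlapping arrays. The polymerase clamp Pcna read 12.80, 12.46 and 12.64 in MP and 12.12 and 12.49 in B progenitors, also overlapping. Rrm2, a subunit of ribonucleotide reductase, was lower in MP (-1.89, limma adjusted p = 3.68e-05), and thymidine kinase Tk1 was higher (1.72, limma adjusted p = 0.000539). Mcm3 was called higher (1.00), but 2 further probe sets were called in the other direction (-0.78 and -1.95).

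Mitosis and spindle genes were lower in MP for 11 of 24 tested and higher for 1, Ube2c (0.77), with a median log2 fold change of -0.71; with centred arrays 21 were lower, and without B 2 the count was 7. Mki67, the Ki-67 antigen of cycling cells, had levels of 11.86, 11.48 and 11.97 in MP, against 12.98 and 13.26 in B progenitors (log2 fold change -1.35, limma adjusted p = 0.000978). Kif23, a motor of cytokinesis, had 7.88, 7.57 and 7.68 in MP, against 9.36 and 9.92 in B progenitors (-1.93, limma adjusted p = 7.35e-05). Cyclin B2 (Ccnb2, -1.81) and Cenpe (-1.26) went the same way. The list means were 9.39, 9.22 and 9.34 in MP and 9.87 and 10.25 in B progenitors, against 7.78 and 7.96 in wildtype HSC. MP thus lay between HSC and B progenitors on this measure.

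G1 cyclins and cell cycle inhibitors were lower in MP for 12 of 21 tested and higher for 2, with a median log2 fold change of -1.19. E2f2, an activator of S phase genes, had levels of 6.64, 6.56 and 6.87 in MP, against 10.78 and 11.18 in B progenitors (log2 fold change -4.29, limma adjusted p = 1.75e-08). The antiproliferative gene Btg2 had 6.83, 6.30 and 6.65 in MP, against 10.44 and 10.14 in B progenitors (-3.69, limma adjusted p = 4.81e-08). The inhibitors Cdkn1c (-2.26), Cdkn2c (-2.25), Cdkn2d (-2.00), Cdkn1b (-1.60) and Cdkn1a (-1.19) were all lower in MP. The D cyclins divided: Ccnd3, which pre-B cells require, was 2.01 lower in MP, and Ccnd2 was 1.06 higher, as was Cdk6 (1.65).

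Genes of DNA methylation, the process in which Dnmt1 acts, were lower in MP for 7 of 19 tested (36.8%, against 11.2% of all tested genes). They were higher for 4 (21.1%, against 24.7%), and the median log2 fold change was -0.24. Dnmt1, the maintenance methyltransferase, had levels of 11.41, 11.30 and 11.73 in wildtype MP, against 12.24 and 12.40 in wildtype B progenitors (log2 fold change -0.84, SE 0.24, limma adjusted p = 0.015). Its probe sets disagreed, with 0.47 (limma adjusted p = 0.21) and -1.05 (limma adjusted p = 0.0072) on the others, and the call was lost without B 2 (-0.76, limma adjusted p = 0.085) and with probe sets averaged (-0.47, limma adjusted p = 0.078). Uhrf1, which guides Dnmt1 to newly replicated DNA, had 10.82, 10.40 and 10.89 in MP, against 12.25 and 12.31 in B progenitors (-1.57, limma adjusted p = 0.0026). The de novo methyltransferases ran the other way. Dnmt3b had 10.69, 10.53 and 10.65 in MP, against 8.39 and 8.42 in B progenitors (2.22, limma adjusted p = 5.71e-07), and Dnmt3a had 8.28, 7.93 and 8.25 in MP, against 6.97 and 7.01 in B progenitors (1.16, limma adjusted p = 0.00033). The cytidine deaminase Apobec1 was 3.09 lower in MP, Tet2 was 1.41 higher and Hells was not called (-0.06, limma adjusted p = 0.86). Without B 1, or with centred arrays, 2 members were higher, and without B 2 the median was -0.06.

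Of 13 Bcl2 family genes tested, 4 were higher in MP (30.8%, against 24.7% of all tested genes) and 5 were lower (38.5%, against 11.2%), with a median log2 fold change of -0.00 that takes either sign under other settings. Bcl2, which guards the mitochondrial membrane, had levels of 9.85, 9.14 and 9.75 in MP, against 4.64 and 5.36 in B progenitors (log2 fold change 4.58, limma adjusted p = 1.48e-08). Its relative Bcl2l1 (Bcl-xL) had 7.89, 8.15 and 7.68 in MP, against 10.81 and 10.59 in B progenitors (-2.80, limma adjusted p = 2.59e-07). Of the 2 survival genes, MP thus had more Bcl2 and B progenitors more Bcl2l1. Among the BH3-only killers, Bmf had 4.29, 3.97 and 4.47 in MP, against 10.49 and 10.57 in B progenitors (-6.28, limma adjusted p = 2.79e-10), and Bcl2l11 (Bim) was 2.51 lower in MP. Bid had 8.54, 8.25 and 8.33 in MP, against 5.12 and 5.47 in B progenitors (3.08, limma adjusted p = 1.60e-06).

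Ribosome biogenesis genes were higher in MP for 17 of 20 tested and lower for 0, with a median log2 fold change of 1.23. The nucleolar proteins Nop16 (2.68), Wdr12 (2.35) and Ncl (2.05) and the RNA polymerase I subunit Polr1b (2.29) had the largest differences, though 3 further probe sets of Ncl gave -0.06 to 0.40 and were not called. Npm1 had levels of 13.34, 13.09 and 13.30 in MP, against 11.98 and 12.19 in B progenitors. Myc, which drives transcription of this group, had 10.38, 10.32 and 10.08 in MP, against 7.08 and 6.72 in B progenitors (log2 fold change 3.36, limma adjusted p = 1.20e-06). The list means were 10.25, 10.38 and 10.28 in MP, against 8.69 and 9.08 in B progenitors.

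Glycolytic genes were higher in MP for 15 of 19 tested and lower for 0, with a median log2 fold change of 1.94. Hexokinase 3 (Hk3), the form of myeloid cells, had levels of 11.30, 11.69 and 11.64 in MP, against 7.08 and 5.40 in B progenitors (log2 fold change 5.30, limma adjusted p = 1.40e-07). Hexokinase 2 (Hk2) had 8.96, 8.78 and 8.78 in MP, against 5.47 and 5.75 in B progenitors. Aldolase A (Aldoa) had 11.96, 12.55 and 12.01 in MP, against 9.38 and 9.18 in B progenitors. The enzymes span the pathway from glucose entry to lactate, with Ldha 1.69 and Ldhb 3.13 higher. Gapdh itself was 1.31 higher in MP (limma adjusted p = 0.000334), and its 3' to 5' difference was larger in B progenitors, as given above.

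**Figure D4:**
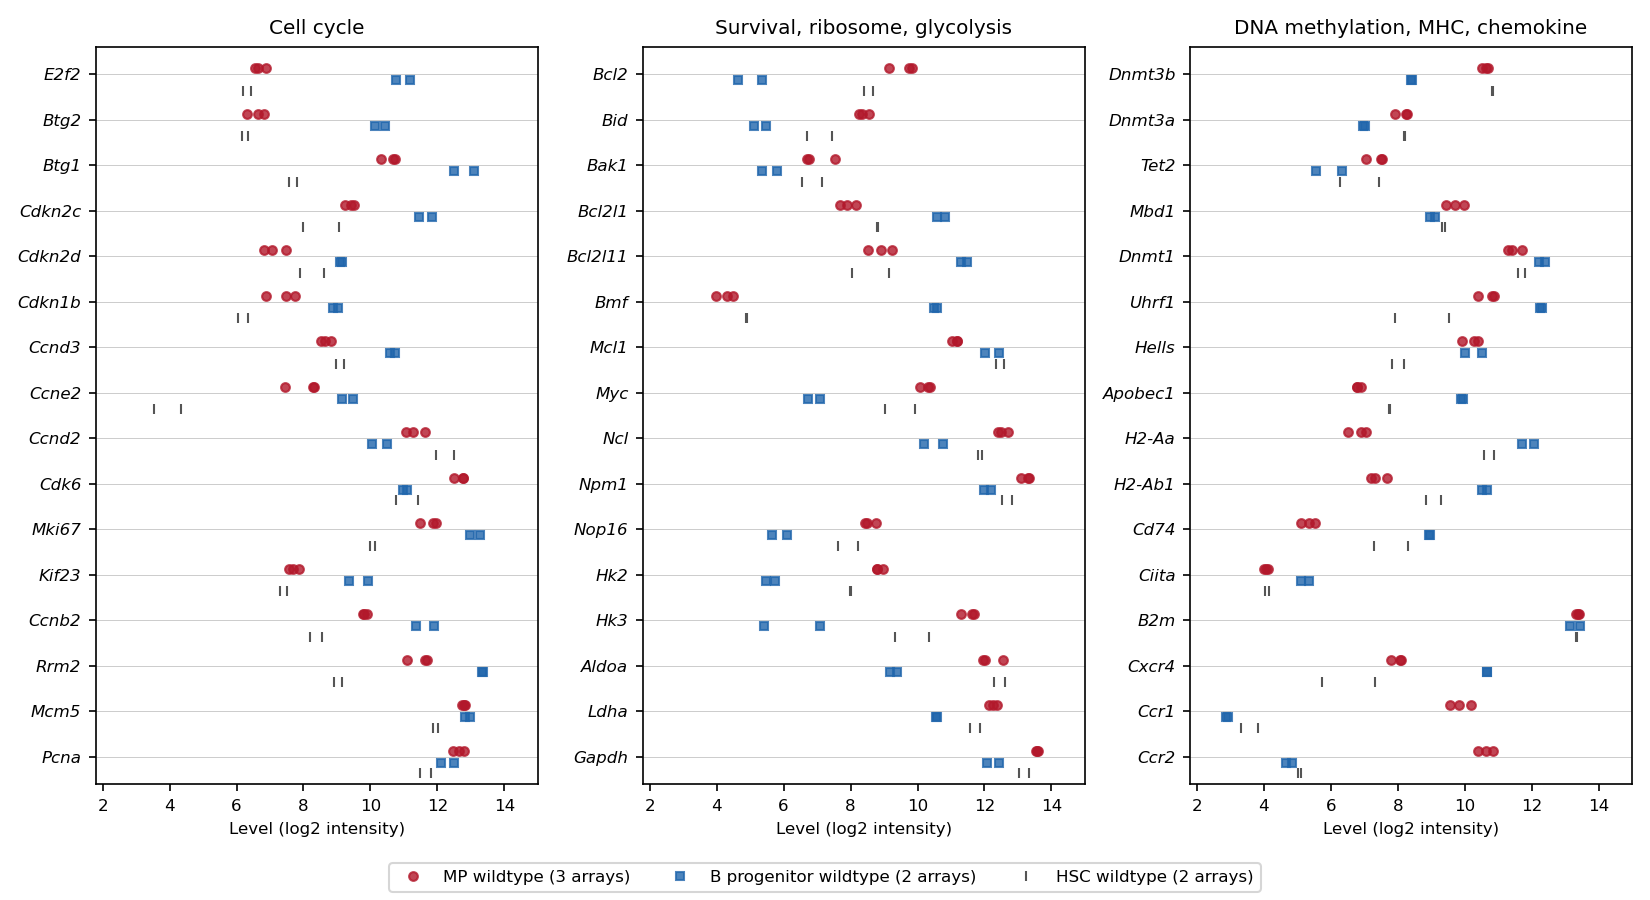
Level of cell cycle, survival, ribosome, glycolysis, DNA methylation, antigen presentation and chemokine genes on each array (horizontal axis, log2 intensity); red circles are the 3 wildtype MP arrays, blue squares the 2 wildtype B progenitor arrays and grey ticks the 2 wildtype HSC arrays. Bcl2 lies at 9.14 to 9.85 in MP and at 4.64 and 5.36 in B progenitors, Bmf at 3.97 to 4.47 in MP and at 10.49 and 10.57 in B progenitors, and the groups overlap for Mcm5, Pcna, Hells and B2m.

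Markers of cells outside both lineages were mostly dim. Of 17 T and NK cell markers, 7 were tested, 2 were lower in MP (Thy1, -1.20, and Cd3e, -0.61) and 0 were higher; at an unadjusted limma p under 0.05 these were 3 and 1, and with centred arrays 5 were lower. Their list means were 4.80, 4.74 and 4.78 in MP, against 5.17 and 5.14 in B progenitors, and Cd3d, Cd3g, Cd8b1 and Ncr1 were too dim to be tested. Of 14 stroma and endothelium markers, 8 were tested, 2 were higher in MP (25%, against 24.7% of all tested genes) and 1, the alkaline phosphatase Alpl (-1.97), was lower (12.5%, against 11.2%), so both shares were near the background. Pdgfrb, a growth factor receptor best known from pericytes, had levels of 9.97, 10.11 and 10.03 in MP, against 4.51 and 7.09 in B progenitors (log2 fold change 4.24, limma adjusted p = 5.14e-05), and 10.37 and 9.05 in wildtype HSC. Col1a2 was 2.49 higher in MP, while another probe set gave 1.02 and was not called (limma adjusted p = 0.097). The defining stromal genes Col1a1, Col3a1, Lepr and Cdh5 were too dim to be tested, and the list means were 5.48, 5.58 and 5.64 in MP, against 4.68 and 5.37 in B progenitors. The stromal list's median log2 fold change was 0.00, and -0.40 with centred arrays. None of the 4 sex-linked genes tested was called by limma, and none had an unadjusted p under 0.05.

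Immediate early and heat shock genes, which respond to handling and sorting as well as to growth factors, were higher in MP for 9 of 16 tested and lower for 2, with a median log2 fold change of 1.21; without B 1 the count was 5 higher, and with centred arrays 4 were lower. Hspa1a varied within MP, at 8.81, 11.06 and 11.58, against 4.82 and 5.22 in B progenitors (log2 fold change 5.46, SE 0.96, limma adjusted p = 0.000502), and its near-identical copy Hspa1b was 4.36 higher. Fos read 12.25, 11.53 and 12.94 in MP, against 6.80 in B 1 and 11.20 in B 2. The immediate early gene Ier3 was 3.69 higher in MP, and Jund was lower, at 8.61, 8.86 and 8.54 in MP against 11.98 and 12.00 in B progenitors. The list means were 9.40, 9.61 and 9.89 in MP, against 7.99 in B 1 and 8.58 in B 2, and their part in the other results was not tested.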

How the data were processed

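Affymetrix expression arrays measured RNA of sorted marrow populations. The authors deposited log2 intensities that they had normalized by RMA, per the submitters' processing notes. The log2 scale is inferred because the values run between 1.93 and 14.99, every fold rests on it, and no further centring is stated. Neither the RMA version nor a genome build is given in the sources used here. The deposited table holds 45101 probe sets in 24 columns, 13 from a normalization of all arrays and 11 from one without B arrays, which cannot give this comparison; 0 columns were left unused. The MP columns correlated at 0.999 between normalizations, so they were counted once.

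Platform annotation gave 34958 probe sets 1 symbol, 932 several and 9211 none; only the first were used. Entrez identifiers matched RefSeq for 34754, and 0 symbols changed. Probe sets that reached the median of all values, 4.64, on 2 or more of the 13 arrays were kept, and the one with the highest mean over these arrays stood for its gene, leaving 12765 of 18194 genes. A gene could pass through HSC or hypomorph arrays alone. Of 2137 called genes with further kept probe sets, 515 had one of the other sign and 84 a called one.

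limma 3.58.1 in R 4.3.3 fitted 1 model of 5 groups, with 8 residual degrees of freedom, and genes were called where the Benjamini-Hochberg adjusted p-value over all tested genes was under 0.05. Adjusted p-values of further probe sets are over all 22122 kept probe sets. The code was tested on simulated data. The number of arrays limits the precision, and no detection calls were used.

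Genes are named by rule: the 12 highest and 12 lowest called genes with separated arrays, up to 4 called members of each of 29 lists with the largest difference, and 8 lineage and methylation regulators. Further names, and the promoters printed, were chosen after values were seen. The comparison, the lists and the motifs were chosen with earlier results of these data known. MP and B arrays share replicate numbers. The correlations of their deviations cannot tell whether same-numbered arrays are paired, because the deviations of the B arrays mirror each other. Alternatives were other arrays in the model, priors, array weights, filters, probe set rules, centring, a minimum fold, a replicate block and leaving out each array.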

Additional observations from a re-analysis of the deposited data

How the results depend on the processing

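The number of genes called stayed within 1.5 times of 4580 under every alternative tried except 2. Testing every probe set gave 7397 calls, 2883 of them lower in MP, among 22122 tested, and asking for a log2 fold change above 1 gave 1250 calls, 858 higher and 392 lower. Centring the arrays turned the balance, with 2032 higher and 3082 lower in MP. Leaving out 1 array at a time gave 3072 to 4968 calls, 1961 to 3406 higher and 1111 to 1562 lower, with every lowest count without B 1. The cause was not tested. The replicate block gave 4302 calls, 3003 higher and 1299 lower. Cd3e (-0.59, limma adjusted p = 0.061) was the only gene named by rule that lost its call under this block. The correlation of deviations was -0.07 for MP 1 and B 1, 0.20 for MP 2 and B 1 and -0.20 for MP 2 and B 2. With only 2 B arrays, their deviations mirror each other, so these correlations cannot tell whether same-numbered arrays are paired. Of 120 called genes named by rule, 103 kept the call under all 26 alternatives, 16 lost it under the minimum fold and 8, with overlap, under another one (Cd3e, Chil3, Dnmt1, Gadd45a, Mcm3, Rfc4, S100a8 and Zeb2). Xist changed sign without B 1 (-0.68, limma adjusted p = 0.80) and was called without B 2 (7.57, limma adjusted p = 0.0018), against 3.45 as reported. List medians kept their sign under every alternative for 24 of 29 lists, the exceptions being Fc receptors, DNA replication, the Bcl2 family, stroma markers and sex-linked genes. A dim gene has only an upper level, which differs between probe sets, so folds of genes that are dim in a group may be understated.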

Other observations

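The genes that separate MP from B progenitors can also be placed against wildtype HSC and hypomorph MP, as a description only, since these comparisons share arrays. Of the 3150 genes higher in MP than in B progenitors, wildtype HSC had a mean nearer to MP for 2407 (76.4%), and of the 1430 lower in MP for 1056 (73.8%), against 62.7% of all tested genes. HSC lay above both populations for 1506 of the genes higher in MP and between them for 1413, while for genes lower in MP it lay between them for 778 and below both for 504. Gata2 and Tfr2 were at least as high in HSC as in MP, whereas Chdh, Ccr1 and Hdc, among the 12 highest, were low in both HSC and B progenitors: Chdh, an enzyme of choline oxidation, read 10.56, 10.11 and 10.60 in MP, against 3.63 and 3.29 in B progenitors and 3.70 and 4.22 in HSC.

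The 3 hypomorph MP arrays lay above both B arrays for 2932 (93.1%) of the genes higher in wildtype MP and below both for 1369 (95.7%) of those lower, against 37.6% and 25.3% of all tested genes. Mpo averaged 14.53 in hypomorph MP, against 14.59 in wildtype MP, and Rag1 averaged 2.59 in hypomorph MP, against 2.66 in wildtype MP. These genes lie near the ends of the scale, and other named genes were further apart. Hypomorph MP averaged 5.55 for Hmga2, 6.66 for Hspa1a and 8.14 for Dnmt1, against 8.88, 10.48 and 11.48 in wildtype MP. S100a8 went the other way, at 10.40 against 8.32. The genotypes were not tested against each other here.

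The B arrays differed by over 2-fold for 750 tested genes, and B 2 was the higher for 604 of them. B 2 was above B 1 for 74.3% of the genes called higher in MP and for 64.3% of all tested genes.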
